A study of Mus musculus with 12 samples.

Results

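The transcripts of 9 genes of the phosphoinositide 3-kinase (PI3K), PDK1 and Akt pathway were followed in mouse cytotoxic T lymphocytes (CTL) that had lost PDK1 or had been exposed to an Akt inhibitor. The genes were listed by name and were Pdpk1, Akt1, Akt2, Pik3cd, Pik3r1, Pik3r5, Pik3ip1, Inpp5d and Phlpp1. Every probe set annotated to one of them was read, which gave 25 of the 45037 probe sets tested, and the 9 genes were among 18193 genes measured. A gene was represented by its brightest probe set, the one with the highest mean over the 12 arrays.

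RNA was measured on Affymetrix mouse GeneChip arrays in 4 groups of 3 arrays, in a pair of separate experiments. PDK1 null CTL came from PDK1fl/fl TamoxCre mice, and Cre control CTL came from TamoxCre mice with unfloxed PDK1. All mice were C57BL/6, TamoxCre is the creEsr1 recombinase placed in the ROSA26 locus, and cultures of both genotypes received 0.6 μM 4-hydroxytamoxifen (4OHT), which switches the recombinase on, for the last 72 hr. In the other experiment, splenic T cells of 3 wild type mice gave CTL that were kept with 1 μM AktI-1/2 (AktI), an inhibitor of the Akt kinases, for the last 48 hr, or without it, and these cells carried no Cre and received no 4OHT as far as the labels state. All CTL were raised by stimulation for 48 hr through CD3 (antibody 2C11, 0.5 μg/ml) and then grown for 5 days in 20 ng/ml IL-2. The deletion was made in the mature T cells in culture, and both the floxed gene and the recombinase were present in every cell type of the spleen. The age of the mice is not given in the labels.

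In T cells, class I PI3K turns signals of the antigen receptor and of IL-2 into phosphatidylinositol trisphosphate at the plasma membrane. This lipid recruits Akt and PDK1, and PDK1 then phosphorylates Akt in its activation loop. Active Akt phosphorylates Foxo transcription factors and keeps them out of the nucleus. The lipid signal is limited by phosphoinositide phosphatases and by inhibitors of PI3K, and Akt itself is switched off by protein phosphatases. The question for each gene was whether the mRNA of the pathway's own parts differed once PDK1 or Akt was out of action.

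Signals are the authors' log2 values, and 1 unit is a doubling. Within a group, the correlation of arrays over probe sets was 0.996 to 0.998. The median signal per array was 4.60 to 4.62 in the PDK1 experiment and 5.10 to 5.14 in the Akt experiment, so effects and not levels were compared between the experiments. A background level was set from 78 probe sets of olfactory and vomeronasal receptors at 4.45 in the PDK1 experiment and 5.01 in the Akt experiment. All 8 CTL markers were above background in each group. Markers of natural killer cells, red cells and platelets were below it in every group, and Cd4 was above it in every group. Of the B cell markers, 2 of 6 were above background in the PDK1 experiment and 4 of 6 in the Akt experiment. Of 5 myeloid markers, 3 were above background in PDK1 null CTL, 2 in Cre control CTL and 1 in each group of the Akt experiment. Of 3 basophil and mast cell markers, 2 were above background in both groups of the PDK1 experiment, 0 with AktI and 1 in wild type CTL. PDK1 null replicate 2 stood apart within its group on Ifng, which encodes an effector cytokine, with 8.04 against 6.56 and 6.41 in PDK1 null replicates 1 and 3 and 7.54, 8.31 and 8.01 in Cre control CTL. The changes of the named genes that passed in PDK1 null CTL are therefore also given without replicate 2, which was picked after the Ifng values were seen. On the perforin gene Prf1 it was replicate 1 that stood apart, with 10.89 against 11.64 and 11.47 in PDK1 null replicates 2 and 3. The Prf1 signals in Cre control CTL were 11.82, 12.28 and 11.92. Passing required a limma adjusted p under 0.05, taken over all probe sets, together with a fold change of 1.5 or more. The words "rose" and "fell" are kept for changes of this kind.

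Inhibitors of PI3K and Akt signalling and a PI3K subunit carried the changes that passed, and none of the kinase genes passed. In PDK1 null CTL, 2 of the 9 genes rose and 0 fell, Pik3r5 1.86-fold and Pik3ip1 1.95-fold, against 1.36% of all genes that changed (1.01% higher and 0.357% lower). With AktI, 3 of the 9 rose and 0 fell, Pik3r5 2.28-fold, Pik3ip1 2.53-fold and Phlpp1 1.84-fold, against 2.53% of all genes (1.51% higher and 1.03% lower). Pik3r5 and Pik3ip1 therefore rose in both comparisons. In such bulk RNA, more or fewer cells of a type and more or less RNA per cell cannot be told apart. Over probe sets, 3 of 25 rose in PDK1 null CTL (1.02% of all probe sets changed) and 4 of 25 with AktI (1.94% changed).

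The median log2 fold change of the 9 genes was 0.05 in PDK1 null CTL and -0.07 with AktI, beside -0.01 and -0.02 over all genes in the same comparisons. At an unadjusted p under 0.05, 3 of the 9 were higher and 0 lower in PDK1 null CTL, and 3 were higher and 2 lower with AktI. Of all 18193 genes, 1496 were higher and 1644 lower in PDK1 null CTL at that cut, and 1750 and 1941 with AktI. With no minimum on the fold, 2 genes passed in PDK1 null CTL (2.37% of all genes) and 4 with AktI (6.59%), where the gene added was Inpp5d. Groups that did not overlap were found for 3 genes higher and 1 lower in PDK1 null CTL (10.9% and 13.7% of all genes), and for 3 higher and 4 lower with AktI (12.7% and 14.8%).

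**Figure D1:**
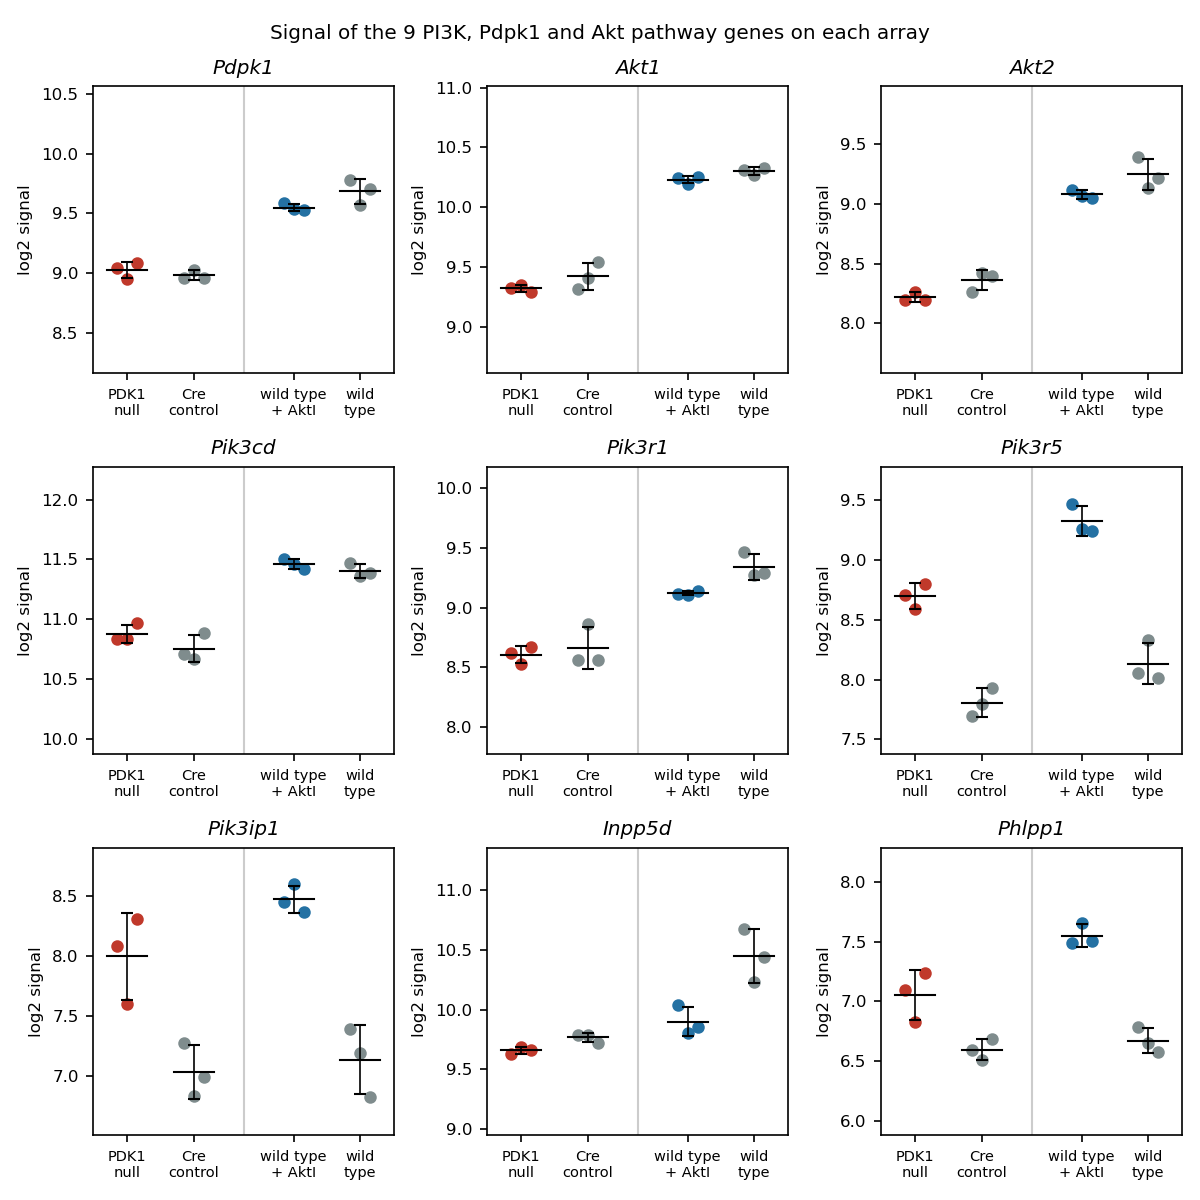
Log2 signal of the brightest probe set of each of the 9 genes on every array (points), with the mean (line) and SD (bars) of 3 arrays per group; PDK1 null and Cre control on the left of each panel, wild type + AktI and wild type on the right, and the y axis spans the same width in all panels. Pik3r5, Pik3ip1 and Phlpp1 lie above their controls in both experiments with no overlap, whereas Pdpk1 and Pik3cd overlap their controls in both.

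The promoter sequences of the 3 genes that rose with AktI are printed because these genes passed in that comparison. In addition, 1 window of Akt1 is printed because it alone among the windows of the 9 genes held the motif searched. All are RefSeq windows of 300 bases on GRCm38.p6, of which 250 lie before the annotated start, and they read 5′ to 3′ on the strand of the gene. The window of Pik3ip1 is chr11:3330481-3330780 (plus strand), that of Pik3r5 is chr11:68431875-68432174 (plus strand), that of Phlpp1 is chr1:106171619-106171918 (plus strand) and that of Akt1 is chr12:112674835-112675134 (minus strand). The single capital stands at the annotated start, and the run of capitals in Akt1 is the motif.
Pik3ip1: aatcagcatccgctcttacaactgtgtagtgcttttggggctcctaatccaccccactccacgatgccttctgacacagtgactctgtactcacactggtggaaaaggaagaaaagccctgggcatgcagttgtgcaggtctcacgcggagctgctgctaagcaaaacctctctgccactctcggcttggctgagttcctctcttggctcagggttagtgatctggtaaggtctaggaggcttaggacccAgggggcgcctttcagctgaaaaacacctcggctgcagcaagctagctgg
Pik3r5: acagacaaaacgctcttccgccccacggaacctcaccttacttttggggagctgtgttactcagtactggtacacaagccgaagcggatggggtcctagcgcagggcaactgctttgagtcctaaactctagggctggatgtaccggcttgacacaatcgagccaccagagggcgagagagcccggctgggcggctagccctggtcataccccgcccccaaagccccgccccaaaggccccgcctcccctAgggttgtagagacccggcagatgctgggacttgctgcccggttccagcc
Phlpp1: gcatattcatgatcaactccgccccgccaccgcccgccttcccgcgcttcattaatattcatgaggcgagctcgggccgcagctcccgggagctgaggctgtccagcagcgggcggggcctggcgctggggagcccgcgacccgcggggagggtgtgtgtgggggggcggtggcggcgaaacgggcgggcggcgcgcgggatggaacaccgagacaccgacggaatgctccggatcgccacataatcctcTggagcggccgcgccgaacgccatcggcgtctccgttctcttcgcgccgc
Akt1: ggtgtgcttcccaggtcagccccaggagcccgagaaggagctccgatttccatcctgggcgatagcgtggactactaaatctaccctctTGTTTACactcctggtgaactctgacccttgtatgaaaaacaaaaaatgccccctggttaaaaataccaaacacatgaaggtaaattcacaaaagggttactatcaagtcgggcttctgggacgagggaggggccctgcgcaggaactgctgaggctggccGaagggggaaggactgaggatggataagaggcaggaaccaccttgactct

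The motif was GTAAACA, a sequence bound by Foxo factors, searched on both strands (TGTTTAC on the reverse). It occurred in 1 of the 17 windows that RefSeq gives for the 9 genes, the Akt1 window above, from 161 to 155 bases before the start and on the reverse strand, while Akt1 itself has a further window without it. Over all genes, 1199 of 32851 windows (3.65%) and 1095 of 27025 genes (4.05%) held it. The windows of Pik3ip1, Pik3r5 and Phlpp1, the genes that rose, did not hold these letters. Their GC content was 54.7%, 62.0% and 70.7%, beside a median of 52.7% over all windows.

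Pik3ip1 encodes a membrane protein that binds the catalytic subunit of PI3K and restrains it. Its brightest probe set (1428332_at) had log2 signals of 8.08, 7.60 and 8.31 in PDK1 null CTL, against 7.27, 6.83 and 6.99 in Cre control CTL. All 3 PDK1 null arrays lay above all 3 controls, with replicate 2 the lowest of its group. The difference was 0.97 on the log2 scale (SE 0.181, 95% interval 0.55 to 1.38, limma adjusted p = 0.0403). The signals were 8.45, 8.60 and 8.37 with AktI, against 7.39, 7.18 and 6.82 in wild type CTL without it. Again no treated array overlapped an untreated one, and the difference was 1.34 (SE 0.136, 95% interval 1.03 to 1.65, adjusted p = 0.00112).

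The gene's other probe set (1439087_a_at) gave 7.67, 7.30 and 8.02 in PDK1 null CTL, against 6.74, 6.26 and 6.56 in Cre control CTL, a rise of 2.21-fold (log2 1.14, SE 0.183, adjusted p = 0.0228). With AktI it rose 3.27-fold (log2 1.71, SE 0.177, adjusted p = 0.00122). The rise in PDK1 null CTL passed by a narrow margin. It was no longer past the threshold without any single Cre control array, or without PDK1 null replicate 1 or 3 (log2 difference from 0.81 to 1.09, adjusted p from 0.0666 to 0.151), while without PDK1 null replicate 2 it was 1.16 (adjusted p = 0.00969). The probe set 1439087_a_at lost its call without the same arrays, at an adjusted p of up to 0.0910, and without PDK1 null replicate 2 it had 1.32 (adjusted p = 0.00967). With AktI, Pik3ip1 passed under all 15 alternatives (adjusted p from 3.8e-05 to 0.00638).

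Phlpp1 encodes a protein phosphatase that removes a phosphate from Akt. Its only probe set (1426994_at) had signals of 7.10, 6.83 and 7.24 in PDK1 null CTL, against 6.59, 6.51 and 6.69 in Cre control CTL. These groups did not overlap, but the difference of 0.46 (SE 0.110, 95% interval 0.21 to 0.71) did not pass (adjusted p = 0.0866). Without PDK1 null replicate 2 it was 0.57 (adjusted p = 0.0239), still below the fold minimum. Over all 15 alternatives it ran from 0.36 to 0.57 (adjusted p from 0.0216 to 0.264) and passed in 0. With AktI the signals were 7.49, 7.66 and 7.50, against 6.78, 6.65 and 6.58 in wild type CTL. The AktI arrays all lay above the untreated ones, and Phlpp1 rose by 0.88 (SE 0.0807, 95% interval 0.69 to 1.06, adjusted p = 0.000666).

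Inpp5d encodes SHIP1, a lipid phosphatase of blood cells that takes a phosphate from phosphatidylinositol trisphosphate. Of the 9 genes it had the most negative difference with AktI, and it ranked 243 from the lowest of 18193 genes by brightest probe set (1418110_a_at). Signals were 10.04, 9.81 and 9.85 with AktI, against 10.68, 10.23 and 10.44 in wild type CTL. The groups did not overlap, the difference was -0.55 (SE 0.117, 95% interval -0.81 to -0.28) and its adjusted p of 0.0320 was below the threshold, but at 1.46-fold it missed the fold minimum. The other probe set (1424195_a_at) had -0.49 (adjusted p = 0.0461). Without wild type replicate 2 the brightest probe set had -0.66 (adjusted p = 0.0201) and passed, and over the other omissions of 1 array its adjusted p was 0.0511 to 0.116.

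Inpp5d had 9.63, 9.69 and 9.66 in PDK1 null CTL, against 9.79, 9.79 and 9.72 in Cre control CTL. All PDK1 null arrays were lower, by a mean of -0.11 (SE 0.0646, adjusted p = 0.496). The other probe set had 7.43, 7.31 and 7.33 in PDK1 null CTL, against 7.58, 7.68 and 7.67 in Cre control CTL, a difference of -0.29 (SE 0.0697, adjusted p = 0.0860). SHIP1 is also made by myeloid and mast cells and by B cells. The log2 of the summed signal of 3 basophil and mast cell markers was 5.80 to 6.18 with AktI (0 of 3 above background), against 6.35 to 6.96 in wild type CTL (1 of 3, Mcpt8), that of 5 myeloid markers was 7.40 to 7.53, against 7.53 to 7.62 (1 of 5 above background in each), and that of 6 B cell markers was 7.81 to 7.88, against 7.68 to 7.77 (4 of 6 in each). Mcpt8, which encodes a protease of basophils, fell 2.12-fold with AktI (adjusted p = 0.0465). Their part in the Inpp5d values was not tested.

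Of the 3 PI3K subunit genes Pik3cd, Pik3r1 and Pik3r5, Pik3r5 rose in both comparisons and the others passed in neither. Pik3r5 encodes the adaptor that couples the gamma catalytic subunit to receptors that signal through G proteins. Its only probe set (1434980_at) had signals of 8.71, 8.59 and 8.80 in PDK1 null CTL, against 7.69, 7.79 and 7.93 in Cre control CTL. With AktI the signals were 9.47, 9.26 and 9.24, against 8.05, 8.33 and 8.02 in wild type CTL. The groups were apart in both experiments by more than their spread. The difference was 0.89 in PDK1 null CTL (SE 0.0887, adjusted p = 0.00373) and 1.19 with AktI (SE 0.103, 95% interval 0.96 to 1.43, adjusted p = 0.000495). Pik3r5 passed without any 1 array in each comparison, with adjusted p-values of 0.00575 to 0.0237 in PDK1 null CTL.

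By size of effect among 18193 genes, Pik3ip1 ranked 82 from the highest in PDK1 null CTL and 45 with AktI, Pik3r5 ranked 96 and 64, and Phlpp1 ranked 397 and 132. The genes whose values followed Pik3r5 most closely over the 12 arrays, after each experiment was centred on its mean, were H2-Oa (r = 0.987), S1pr4 (r = 0.985) and Lypd6b (r = 0.984). For Pik3ip1 they were Tsc22d3 (r = 0.990), Stxbp3 (r = 0.989) and Ctdsp2 (r = 0.988). These 6 were the closest among 12368 genes above background. The 12 arrays share the 4 groups, so a difference between groups enters each r, which is given as a description.

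Pik3cd encodes p110δ, the catalytic subunit that is prominent in lymphocytes. Its brightest probe set (1453281_at) had 10.83, 10.83 and 10.97 in PDK1 null CTL, against 10.70, 10.67 and 10.88 in Cre control CTL, and 11.51, 11.46 and 11.42 with AktI, against 11.47, 11.36 and 11.39 in wild type CTL. The groups overlapped in both experiments, with differences of 0.13 (95% interval -0.06 to 0.31, adjusted p = 0.535) and 0.05 (95% interval -0.10 to 0.21, adjusted p = 0.751). The 5 other probe sets had differences from -0.11 to 0.17 in PDK1 null CTL and from -0.07 to 0.11 with AktI, none of which passed. The probe set 1458321_at was below background in both experiments.

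Pik3r1 encodes p85α, a regulatory subunit that stabilizes p110δ. Its 4 probe sets did not give the same size of difference with AktI. The brightest (1438682_at) had 9.12, 9.10 and 9.14 with AktI, against 9.46, 9.27 and 9.29 in wild type CTL, a difference of -0.22 (SE 0.0730, adjusted p = 0.147). The probe sets 1425514_at (-0.50, SE 0.0838, adjusted p = 0.0112) and 1451737_at (-0.43, SE 0.0676, adjusted p = 0.00877) were below the p threshold but short of the fold minimum, at 1.42-fold and 1.35-fold. The probe set 1425515_at had -0.14 (adjusted p = 0.462). On all 4 probe sets the AktI arrays lay below the untreated ones. The brightest had 8.62, 8.53 and 8.67 in PDK1 null CTL, against 8.56, 8.87 and 8.56 in Cre control CTL, which overlapped (difference -0.06, SE 0.0972, adjusted p = 0.849), and the other 3 had -0.17 to -0.07. Cre control replicate 2 was the highest of its group, and without it the difference of the brightest probe set was 0.04.

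No kinase gene of the list of 9 passed in either comparison. Pdpk1, which encodes PDK1, had signals of 9.05, 8.95 and 9.09 in PDK1 null CTL, against 8.96, 9.03 and 8.96 in Cre control CTL, on its brightest probe set (1415729_at). The groups overlapped, and the difference was 0.05 (95% interval -0.11 to 0.21, adjusted p = 0.822). The other probe set (1416501_at) had -0.04 (95% interval -0.19 to 0.11). Since the position of these probe sets relative to the floxed exons is not given in the sources used here, they are no check of the genotype. With AktI, Pdpk1 had 9.58, 9.54 and 9.52, against 9.78, 9.57 and 9.70 in wild type CTL, and the difference was -0.14 (95% interval -0.30 to 0.03, adjusted p = 0.399).

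Akt1 encodes the Akt isoform found in most cells. On its brightest probe set (1416657_at) it had 9.33, 9.35 and 9.29 in PDK1 null CTL, against 9.32, 9.41 and 9.54 in Cre control CTL, with overlap and a difference of -0.10 (adjusted p = 0.614). With AktI it had 10.24, 10.20 and 10.25, against 10.31, 10.27 and 10.33 in wild type CTL. The AktI arrays lay below the untreated ones by a small and even amount, -0.07 (95% interval -0.21 to 0.07, adjusted p = 0.631). The 3 other probe sets had differences from -0.19 to 0.03 in PDK1 null CTL and from -0.11 to 0.02 with AktI, and 1442759_at was below background in both experiments.

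Akt2 encodes an isoform best known for its part in insulin signalling. Its brightest probe set (1424480_s_at) had 8.20, 8.26 and 8.20 in PDK1 null CTL, against 8.26, 8.42 and 8.39 in Cre control CTL (difference -0.14, 95% interval -0.30 to 0.02, adjusted p = 0.415). With AktI it had 9.12, 9.07 and 9.05, against 9.39, 9.13 and 9.22 in wild type CTL (difference -0.17, 95% interval -0.35 to 0.02, adjusted p = 0.331). The probe sets of Akt2 disagreed with AktI. The probe set 1421324_a_at had -0.34 (SE 0.0689, adjusted p = 0.0270), short of the fold minimum, whereas 1455703_at had 0.18 (SE 0.0731, adjusted p = 0.256), with no overlap between groups on either. The same probe sets had -0.13 and -0.24 in PDK1 null CTL. Affymetrix marks with _s or _x a probe set whose probes can match more than 1 transcript, so 1424480_s_at is less certain as a measure of Akt2 alone.

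**Figure D2:**
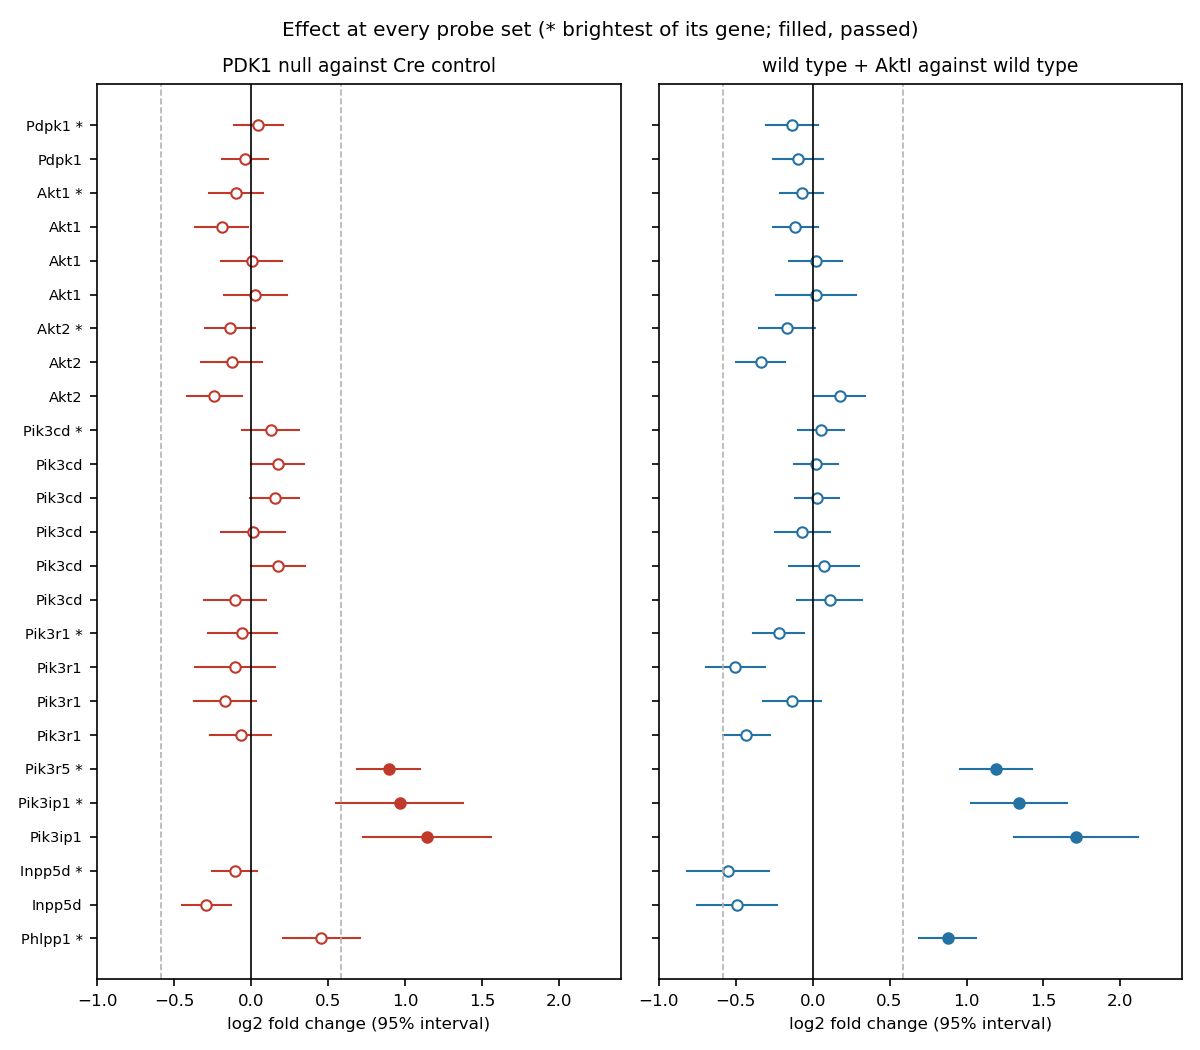
Log2 fold change (x axis) of each of the 25 probe sets of the 9 genes, with its 95% interval from limma, in PDK1 null against Cre control CTL (left) and wild type + AktI against wild type CTL (right). An asterisk marks the brightest probe set of a gene, filled points passed, and dashed lines mark the 1.5-fold minimum; the 3 filled points on the left are Pik3r5 and both probe sets of Pik3ip1, and Phlpp1 joins them on the right.

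In the AktI experiment, treated and untreated cultures came from the same mouse, so each mouse gives its own difference. Pik3ip1 was higher with AktI by 1.06, 1.41 and 1.55 in mice 1 to 3, Pik3r5 by 1.42, 0.93 and 1.22, and Phlpp1 by 0.71, 1.01 and 0.92. The mouse with the smallest rise of Pik3ip1 and Phlpp1, mouse 1, had the largest rise of Pik3r5. Inpp5d differed by -0.64, -0.42 and -0.58. Pik3r1 differed by -0.35, -0.17 and -0.15, and Akt1 by -0.07, -0.07 and -0.08. Brightest probe sets were higher with AktI in 3 of 3 mice for Pik3r5, Pik3ip1, Phlpp1 and Pik3cd and lower in 3 of 3 for Pdpk1, Akt1, Akt2, Pik3r1 and Inpp5d. The share of all genes with 1 sign in 3 of 3 mice was not counted. The differences of Pik3cd were small, at 0.03, 0.10 and 0.03, and each of its other probe sets was higher in 2 of 3 mice. For Akt2, 1455703_at was higher in 3 of 3. With the mouse as a block, the calls of the 9 genes were the same.

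**Figure D3:**
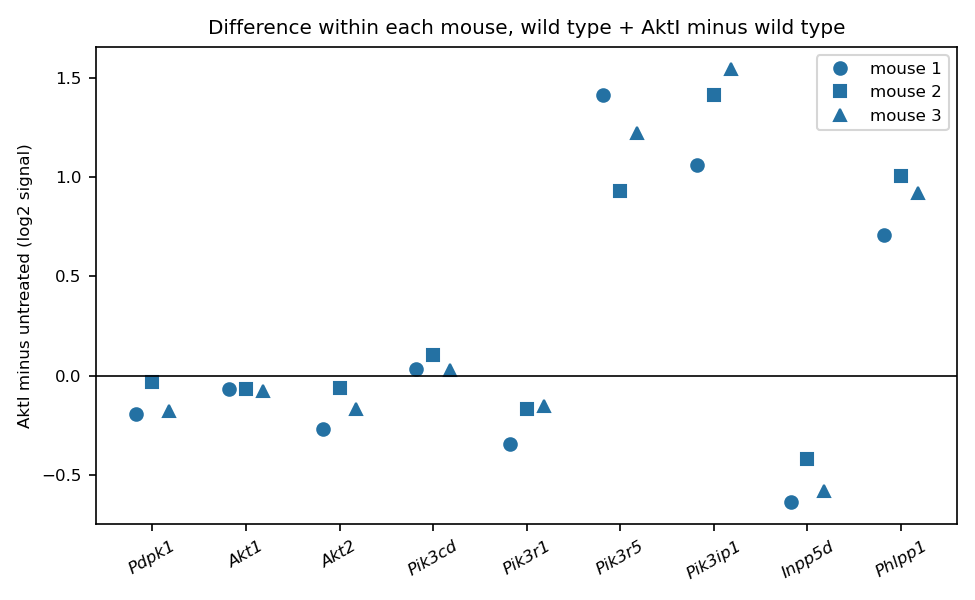
Difference in log2 signal between the AktI-treated and the untreated culture of each of 3 mice (points, by mouse) for the brightest probe set of the 9 genes. The 3 mice lie on the same side of 0 for each gene, with Pik3r5 between 0.93 and 1.42 and Inpp5d between -0.64 and -0.42.

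Whether PDK1 loss and AktI moved a gene by different amounts was tested as the difference of their effects, PDK1 null effect minus AktI effect, over all 12 arrays. Of the 9 genes, 0 passed by limma, beside 0.522% of all genes (0.319% with a higher and 0.203% with a lower effect of PDK1 loss). At an unadjusted p under 0.05 Inpp5d had the higher and Phlpp1 the lower effect, beside 1029 higher and 986 lower of all 18193 genes. With no fold minimum the count was also 0, beside 0.616% of all genes, and over probe sets 0 of 25 passed, beside 0.395%. The intervals do not show that the effects were alike. Phlpp1 had 0.46 in PDK1 null CTL and 0.88 with AktI (difference -0.42, 95% interval -0.73 to -0.12, adjusted p = 0.287). Inpp5d had -0.11 in PDK1 null CTL and -0.55 with AktI (difference 0.44, 95% interval 0.14 to 0.74, adjusted p = 0.252).

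Pik3r5 and Pik3ip1, which rose in both comparisons, had the smaller rise in PDK1 null CTL. The difference was -0.30 for Pik3r5 (95% interval -0.60 to 0.01, adjusted p = 0.503) and -0.38 for Pik3ip1 (95% interval -0.91 to 0.16, adjusted p = 0.669). For Pdpk1, Akt1, Akt2, Pik3cd and Pik3r1 the differences on the brightest probe sets were between -0.03 and 0.18. The widest interval among these 5, that of Pik3r1, reached from -0.10 to 0.43. The arrays of the experiments differ in the presence of Cre, 4OHT and time of exposure, and these cannot be told apart from the difference between PDK1 loss and Akt inhibition.

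Beyond the 9 genes, a list of other genes of the pathway held 41 measured genes. The tribbles pseudokinase Trib2, whose protein binds Akt, was the gene of the list with the largest change in both comparisons. It had 7.81, 6.64 and 7.58 in PDK1 null CTL, against 5.84, 5.07 and 5.13 in Cre control CTL, and 9.47, 9.81 and 9.43 with AktI, against 6.60, 6.68 and 5.79 in wild type CTL. Trib2 rose 3.99-fold in PDK1 null CTL (log2 2.00, SE 0.308, adjusted p = 0.0203) and 9.27-fold with AktI (log2 3.21, SE 0.220, adjusted p = 0.000167). Leaving out PDK1 null replicate 1 or 3, or Cre control replicate 2 or 3, took the adjusted p in PDK1 null CTL to between 0.0584 and 0.0934, where Trib2 no longer passed. Its brightest probe set is 1426640_s_at, whose suffix makes it less certain as a measure of Trib2 alone. The probe set 1426641_at rose too, 2.15-fold in PDK1 null CTL (adjusted p = 0.0418) and 6.52-fold with AktI (adjusted p = 0.00168). In the PDK1 experiment, however, 1426641_at was below background in both groups. In PDK1 null CTL the call of 1426641_at was lost in 1 model over all arrays, without any single Cre control array and without PDK1 null replicate 1 or 3 (adjusted p up to 0.153), while without PDK1 null replicate 2 it had 1.38 (adjusted p = 0.00107).

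Of the 41 genes, 1 rose (Trib2) and 0 fell in PDK1 null CTL, beside 1.36% of all genes that changed. With AktI, 2 of the 41 rose (Trib2 and Foxo3) and 0 fell, beside 2.53% of all genes. The median log2 fold change of the 41 genes was 0.01 in each comparison, beside -0.01 and -0.02 over all genes. At an unadjusted p under 0.05, 6 were higher and 5 lower in PDK1 null CTL, and 15 were higher and 5 lower with AktI. Of all 18193 genes, 1496 were higher and 1644 lower in PDK1 null CTL at that cut, and 1750 and 1941 with AktI. Foxo3, a transcription factor that Akt phosphorylates, had 7.74, 7.93 and 8.08 with AktI, against 7.02, 7.48 and 7.23 in wild type CTL, and rose 1.59-fold (log2 0.67, SE 0.128, adjusted p = 0.0212). In PDK1 null CTL its difference was 0.06 (adjusted p = 0.843), and the difference of the effects was -0.61 (adjusted p = 0.191). The Foxo3 call was lost without wild type replicate 1 or 3 or AktI replicate 2 or 3 (adjusted p from 0.0640 to 0.0750).

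By role and brightest probe set, none of the 3 further catalytic genes and the 4 further regulatory and adaptor genes of class I PI3K, the 3 class II and III genes, the 5 phosphoinositide phosphatases or the 8 genes of the TOR complexes passed in either comparison. Some were below the p threshold and short of the fold minimum. With AktI these were Rictor, a subunit of the TOR complex that phosphorylates Akt (0.47, adjusted p = 0.00532), Pik3c2a, a class II PI3K (0.57, adjusted p = 0.00575), and Inpp4b, a phosphoinositide phosphatase (0.40, adjusted p = 0.0316). Prr5, a partner of Rictor, was the gene of this kind in PDK1 null CTL, with 4.70, 4.50 and 4.76, against 5.19, 5.13 and 5.25 in Cre control CTL (-0.54, adjusted p = 0.0226). The PDK1 null values lay near the background level of 4.45, and in the Akt experiment Prr5 was below background.

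Other genes of the list passed only on a probe set that was not their brightest. Tbc1d4, an Akt substrate that regulates vesicle traffic, rose on 1435292_at 2.59-fold in PDK1 null CTL (log2 1.37, adjusted p = 0.0228) and 4.77-fold with AktI (log2 2.25, adjusted p = 1.7e-05), while its brightest probe set had 0.46 (adjusted p = 0.0693) in PDK1 null CTL and 0.50 (adjusted p = 0.0566) with AktI. The call of 1435292_at in PDK1 null CTL was lost when PDK1 null replicate 1 or 3 or Cre control replicate 2 or 3 was omitted (adjusted p of 0.0607 to 0.0857), and without PDK1 null replicate 2 it had 1.55 (adjusted p = 0.0160). Pik3ap1, an adaptor for PI3K best known in B cells, fell with AktI on 1429831_at (-0.88, adjusted p = 0.00368), while its brightest had -0.63 (adjusted p = 0.0629). The tribbles gene Trib3 rose with AktI on 1426065_a_at by 0.72 (adjusted p = 0.0254), while its brightest, 1456225_x_at, had 0.71 (adjusted p = 0.0525). The call of 1426065_a_at was lost without AktI replicate 2 or 3 or wild type replicate 1 or 3 (adjusted p from 0.0734 to 0.0980) and with a 2-fold minimum. With the mouse as a block the brightest probe sets of Pik3ap1 (adjusted p = 0.0116) and Trib3 (adjusted p = 0.0472) passed as well, which took the count with AktI to 4 of 41.

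**Figure D4:**
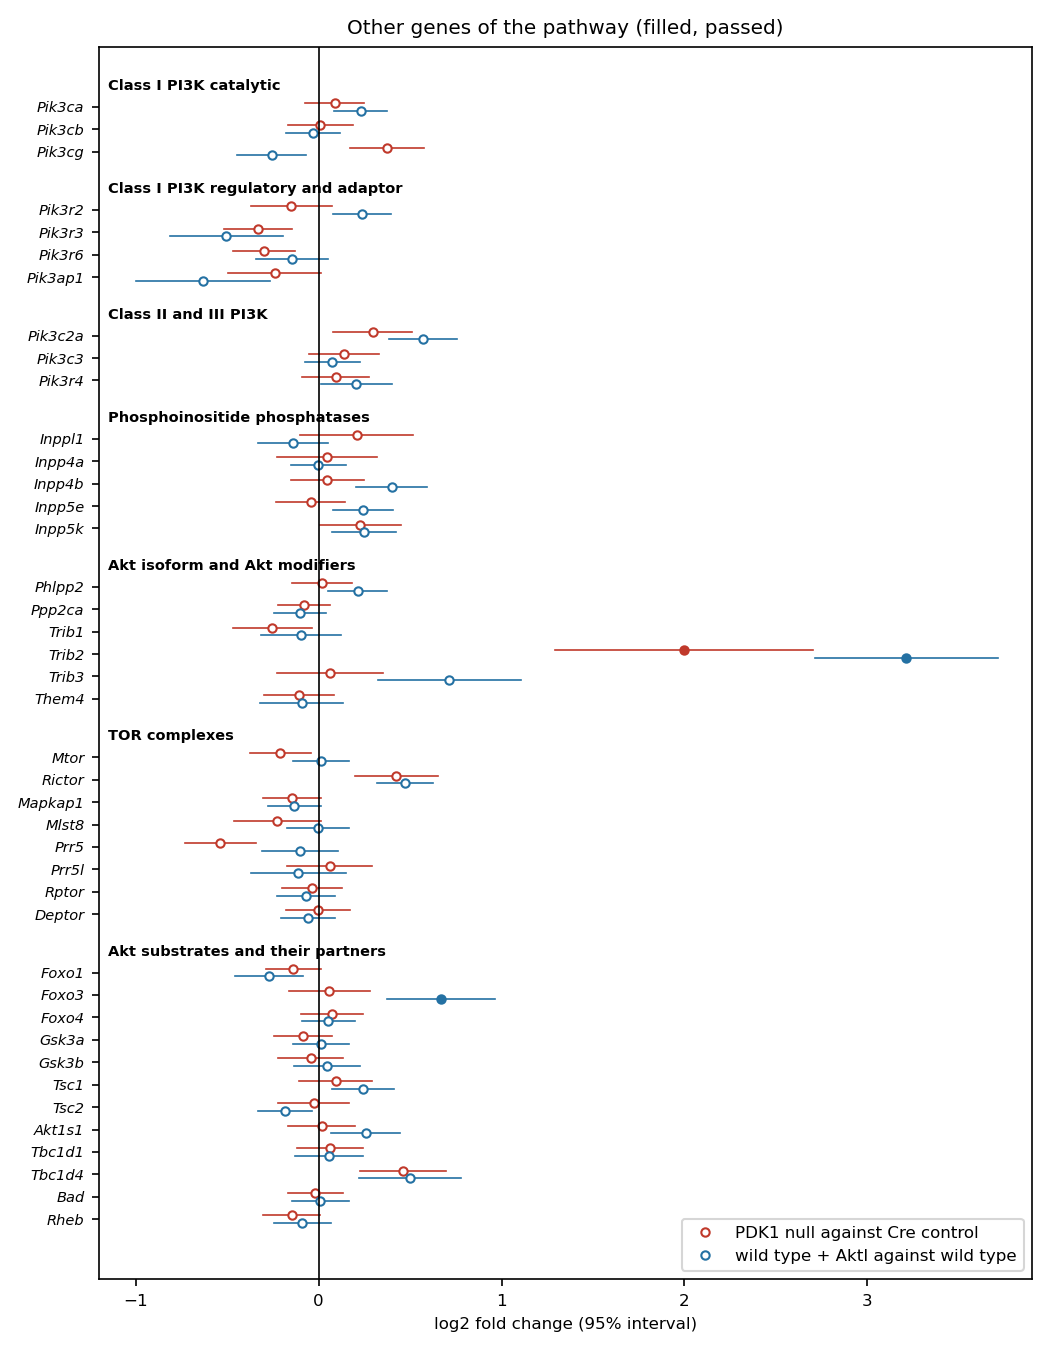
Log2 fold change with 95% interval from limma (x axis) for the brightest probe set of each of 41 other pathway genes, grouped by role, in PDK1 null against Cre control CTL (red) and wild type + AktI against wild type CTL (blue); filled points passed. Trib2 stands at 2.00 and 3.21, Foxo3 is filled for AktI only at 0.67, and the red and blue points of Pik3cg lie on either side of 0.

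Pik3cg encodes the gamma catalytic subunit that pairs with the product of Pik3r5. On its brightest probe set (1422707_at) it had 8.70, 8.50 and 8.74 in PDK1 null CTL, against 8.21, 8.37 and 8.24 in Cre control CTL (0.37, SE 0.0875, adjusted p = 0.0806), and 9.01, 8.89 and 9.05 with AktI, against 9.30, 9.11 and 9.32 in wild type CTL (-0.26, SE 0.0817, adjusted p = 0.131). It was higher on every PDK1 null array and lower on every AktI array than on the controls. It was the only one of the 41 genes whose effects differed past the threshold, beside 0.522% of all genes (difference 0.63, SE 0.122, 95% interval 0.37 to 0.89, adjusted p = 0.0428). That call was lost without any 1 array other than PDK1 null replicate 2 or wild type replicate 2 (adjusted p from 0.0516 to 0.129), and with the mean of its 2 probe sets the difference was 0.35 (adjusted p = 0.265).

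PDK1 null replicate 2, the array with the high Ifng signal, was the lowest of its group for Pik3ip1, Pik3r5, Phlpp1 and Trib2. Without it, Pik3r5 had 0.95 (adjusted p = 0.00575) and Trib2 2.35 (adjusted p = 0.00522), and 637 probe sets changed in place of 459. With AktI, Ifng fell by 2.10 (adjusted p = 0.000211) and the perforin gene Prf1 fell by 2.20 (adjusted p = 0.000164), beside the rise of Pik3r5, Pik3ip1 and Phlpp1, and their part in these rises was not tested. The T cell receptor genes Cd3d, Cd3e and Cd3g and the CTL markers Cd8a, Cd8b1 and Gzmb passed in neither comparison. With AktI, Cd8b1 had 0.50 (adjusted p = 0.00350) and Gzmb -0.34 (adjusted p = 0.0192), both short of the fold minimum. In PDK1 null CTL, Ifng had -0.95 (adjusted p = 0.301) and Prf1 -0.67 (adjusted p = 0.140), and neither passed.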

How the data were processed

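Expression was measured in 12 CTL cultures on Affymetrix arrays, 3 per group. The deposited log2 signals are the authors' output of Affymetrix Expression Console 1.1, which runs robust multichip averaging, and nothing was renormalized for the results given; the genome build of the probe annotation is not given in the sources used here. Of 45101 probe sets, 64 controls were left out. Of the 45037 tested, 34945 name 1 gene, 932 several and 9160 none in the GEO platform annotation. Where several probe sets name 1 gene alone, the one with the highest mean over 12 arrays stands for it.

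The fits used limma 3.58.1 in R 4.3.3 (lmFit, then eBayes), separately for the 6 arrays of each experiment and without covariates. Benjamini-Hochberg adjustment ran over all 45037 probe sets. The difference of effects was a contrast in a model of 4 group means. The study's SAM test was not rerun, and limma was used in its place. The code was tested on simulated data. In the AktI experiment the labels name the mouse of each culture, so equal replicate numbers are pairs. Once group means were removed, such pairs had correlations of 0.0343 to 0.170, and pairs of unequal number had -0.102 to 0.0383.

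The 9 genes, the pathway list, the markers and the motif were chosen with earlier results of these data known. Every probe set of the 9 genes and every gene of the pathway list that passed is named; genes short of a threshold, Pik3cg and the genes that passed by another probe set were named after their values were seen. The 3 genes closest to each gene that rose in both comparisons are named too. Marker sums are log2 of summed linear signals. Alternatives covered variance settings, normalization, dim probe sets, the fold minimum, 1 model over all arrays, a replicate block, the mean of a gene's probe sets and the omission of each array; counting any probe set of a gene was added after the data were seen. The number of arrays limits the precision. Some genes of the pathway list were not analysed here.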

Additional observations from a re-analysis of the deposited data

Results flagged for a closer look

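On the brightest probe set of Pik3cg, the gamma catalytic subunit of PI3K, the effects of PDK1 loss and of AktI ran in opposite directions. Their difference was 0.63 on the log2 scale (limma adjusted p = 0.0428). All 3 PDK1 null arrays lay above the Cre control arrays, and all 3 AktI arrays lay below the wild type arrays. Neither effect passed by itself. The call of the difference was lost without any 1 array other than PDK1 null replicate 2 or wild type replicate 2 (adjusted p from 0.0516 to 0.129). With the mean of the 2 probe sets the difference was 0.35 (adjusted p = 0.265), and on the other probe set it ran from -0.05 to 0.17 over the alternatives and passed in none. The separate effects on that other probe set were 0.06 in PDK1 null CTL and -0.001 with AktI.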

How the results depend on the processing

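Over the alternatives that kept all arrays, 369 values of the genes named kept their direction and their side of the threshold, 13 passed newly, 7 no longer passed and 1 changed sign. Over the omissions of 1 array the counts were 320, 4, 23 and 13. Of the 25 probe sets, those of Akt1 and Pik3cd named as below background carry little signal. With a 2-fold minimum, 0 of the 9 genes passed in PDK1 null CTL, and the counts of probe sets were 135 in PDK1 null CTL (459 at 1.5-fold), 262 with AktI (872) and 74 for the difference of effects (178). With no minimum they were 835 in PDK1 null CTL and 2329 with AktI. Without 1 array, the probe sets changed numbered 194 to 637 in PDK1 null CTL, 752 to 888 with AktI and 104 to 220 for the difference. The 9 genes gave 1 to 2 calls in PDK1 null CTL, 3 to 4 with AktI and 0 to 0 for the difference. The 41 pathway genes gave 0 to 1 calls in PDK1 null CTL and 1 to 4 with AktI. In PDK1 null CTL, 2 pathway genes passed with no fold minimum, with the mean of a gene's probe sets, or by any probe set. With AktI, 4 passed with dim probe sets left out, in 1 model over all arrays, or with the mean of probe sets, and 5 with no fold minimum or by any probe set, while 1 passed at 2-fold.

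With the replicate block, 4 pathway genes passed with AktI in place of 2, and the difference of effects on the Trib2 probe set 1426641_at passed (-1.60, adjusted p = 0.0475). That probe set was below background in the PDK1 experiment. By brightest probe set, no other call changed among the 9 genes and the pathway genes named. In PDK1 null CTL the replicates share only a number (r from -0.0110 to 0.0496 for equal numbers, -0.0740 to 0.0410 for others), and with the block 2 of the 9 genes passed, as without it. Values near 0 changed sign without passing. With the mean of its probe sets the Akt2 difference of effects was -0.0590. Without 1 array, the difference of effects ran from -0.0441 to 0.0849 for Akt2, from -0.0811 to 0.0322 for Akt1 and from -0.155 to 0.0441 for Tbc1d4, and the difference in PDK1 null CTL ran from -0.109 to 0.0437 for Pik3r1, from -0.0797 to 0.164 for Trib3 and from -0.0308 to 0.117 for Foxo3. The cause was not tested.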
